A study of Mus musculus with 12 samples.

Results

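Cluster 18 is the smaller of a pair of clusters that the deposited annotation calls oligodendrocyte precursor cells (OPCs). Its 166 cells were those with the annotated cell type OPC and the deposited cluster number 18, out of 894 precursors and 19834 cells in all. The other 728 precursors form cluster 9 and serve here as the reference. An earlier annotation column of the same table names 146 of the 166 cells OPC and gives no name for 20.

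The cells came from hippocampi of female C57/BL6J mice aged 9 weeks, taken on day 22. PBS nonstim mice received PBS and no stimulation. PBS stim mice received PBS and 40 Hz light flicker with sound pulses for 1 h a day over 21 days. Cisplatin nonstim mice received the platinum chemotherapy drug cisplatin, and Cisplatin stim mice received cisplatin with the same stimulation, begun on the first day of cisplatin. The series addresses what this stimulation does in a mouse model of chemotherapy-related brain pathology. Each group has 3 droplet libraries. Replicate 1 of each group holds 2 hippocampi of 1 animal and carries the deposited batch name D20, while replicates 2 and 3 hold 4 hippocampi of 2 animals and carry D21. The 2 animals of a library were pooled and cannot be told apart.

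Oligodendrocyte precursors are the dividing glial cells that give rise to myelinating oligodendrocytes, and in the adult hippocampus they tile the tissue and receive synapses from neurons. The receptor Pdgfra, which binds platelet-derived growth factor, keeps them in the precursor state. The proteoglycan Cspg4 (NG2) coats their surface. The transcription factors Olig1, Olig2 and Sox10 set the lineage, and Gpr17 marks precursors committed to differentiate. In droplet sequencing each captured molecule carries a unique molecular identifier (UMI), and the molecules of a cell divide into spliced ones and unspliced ones that still hold intron sequence. Unspliced RNA and long noncoding RNAs such as Xist reside mainly in the nucleus, while messages of ribosomal proteins are mostly cytoplasmic.

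The libraries held 611 to 2772 cells. Cluster 18 had 313715 UMIs in all, and 1 library, Cisplatin nonstim 1, gave 27.1% of its cells and 35.0% of these UMIs. The 9 libraries with at least 5 cluster 18 cells had 9054 to 109646 UMIs each, so that 1 UMI in the shallowest equals 110 CPM (counts scaled to the same total in every library). No barcode of a cluster 18 cell occurred in another library, against 56 of 19778 barcodes in the series. The median doublet score, as deposited, was 0.0326 in cluster 18 and 0.0207 in cluster 9.

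The precursor label fitted the markers. At least 1 UMI of Pdgfra, Tnr (tenascin-R, an extracellular matrix protein), Neu4 (a sialidase) or Gpr17 was found in 163 of 166 cells, or 98.2%. The same 4 genes were found in 703 of 728 cells of cluster 9. When every cell was thinned to 1000 UMIs, which 140 of 166 and 700 of 728 cells reached, 136 of 140 cluster 18 cells and 656 of 700 cluster 9 cells had one of them. Over 9579 genes, the summed profile of cluster 18 correlated with that of cluster 9 at r = 0.826, with that of neuron cluster 12 at 0.678 and with that of astrocyte cluster 1 at 0.626. These are correlations across genes, given as a description with no test.

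Outside the marker list, precursors of both clusters stood above the clusters of every other cell type in 6 genes chosen for that difference in cluster 18. Pcdh15, a protocadherin, stood at 832 CPM in cluster 18, 366 in cluster 9 and 13.7 in neuron cluster 12, the next highest cluster of another type. Megf11 stood at 316 CPM in cluster 18 and 183 in cluster 9, and the matrix protein Matn4 at 1218 and 743. The neurexin ligand Nxph1 stood at 312 and 387 CPM, the AMPA receptor auxiliary subunit Cacng4 at 708 and 762, and Emid1 at 245 and 207. As ratios of CPM + 10 over the next highest cluster of another type, cluster 18 stood at 35.5 for Pcdh15, 20.9 for Megf11, 19.04 for Matn4, 17.0 for Nxph1, 15.6 for Cacng4 and 13.3 for Emid1.

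Markers of other cell types were also counted. A UMI of an ependymal marker was found in 0 of 166 cells, which allows a share of cells with such a UMI of up to 1.81%, counting error only. The 6 microglia markers took 0.0256% of cluster 18 UMIs against 0.00809% in cluster 9. Both of the microglia genes with enough counts had a ratio above 0 (median of summed counts 1.55), with 0 called. C1qa, a complement subunit that microglia make, stood at 95.6 CPM against 16.3. The 5 choroid plexus markers took 0.1% against 0.0603%, and the 7 astrocyte markers 0.107% against 0.128%. The part of such RNA in the differences between the clusters was not tested. The deposited cell cycle calls placed 68.7% of cluster 18 cells in G1, 14.5% in G2M and 16.9% in S, against 77.1%, 6.46% and 16.5% in cluster 9. These calls come from shallow cells, and the effect of depth on them was not tested.

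The clearest property of cluster 18 was the kind of RNA its cells held. They had a median of 1656 UMIs and 869 genes, against 7216 UMIs and 3323.5 genes in cluster 9. A median of 75.7% of their molecules were unspliced, against 44.1%, and among all 21 clusters only neuron cluster 12 was higher, at 76.7%. Spliced and unspliced molecules are separate counts deposited per cell and are not the UMIs of the count matrix: unspliced molecules alone outnumbered the matrix UMIs in 139 of 166 cells of cluster 18 and 121 of 728 of cluster 9. The median number of spliced molecules, 838.5 per cell against 5468.5 in cluster 9, was the lowest of all clusters, while the number of unspliced molecules was 2939.5 against 4459.5. Ribosomal protein messages took a median of 1.46% of the total against 5.83%, both as deposited.

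UMIs of the 13 mitochondrially encoded genes made up a median of 16.3% per cell against 4.03%. Averaged over the library medians, this share was 17.3% ± 4.54 (SD, n = 11 libraries) in cluster 18 and 5.43% ± 3.26 (n = 12) in cluster 9. Thinned to 1000 UMIs, cluster 18 cells held 581 ± 31.2 genes (n = 11) and cluster 9 cells 741 ± 19.4 (n = 12), so fewer kinds of RNA were seen per UMI as well. Since the clusters were cut from the expression of these cells, all differences between them are given as a description with no test.

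**Figure D1:**
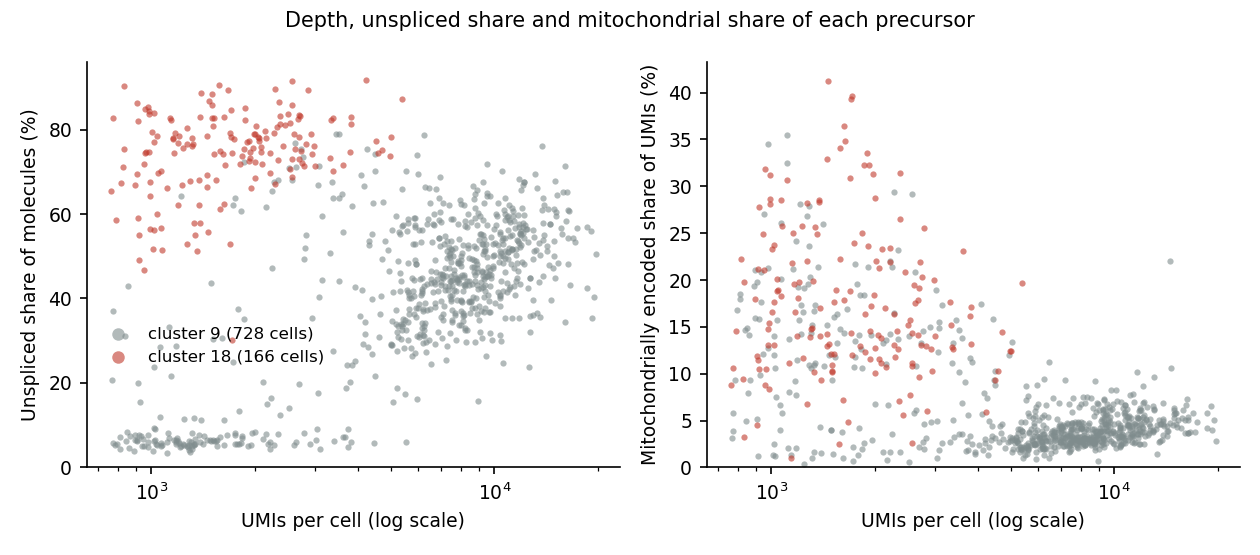
Each point is 1 precursor cell, with UMIs per cell on a log scale on both horizontal axes, and the unspliced share of molecules (left) or the mitochondrially encoded share of UMIs (right) on the vertical axes, in percent. Cluster 18 (red, 166 cells) lies at low UMI counts and around a median of 75.7% unspliced, apart from the shallow cells of cluster 9 (grey, 728 cells), most of which lie under 20% unspliced.

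Shallow cells of cluster 9 did not share this profile. Among cells of at most 2400 UMIs, the 126 in cluster 18 had a median unspliced share of 75.1% and the 132 in cluster 9 one of 6.58%. Of those 126 cells, 123 had at least 50% unspliced molecules and 0 had under 20%, while 105 of the 132 had under 20% and 9 at least 50%. In each of the 11 libraries with shallow cells of both clusters, the median unspliced share was higher in cluster 18. Both shallow sets were rich in mitochondrially encoded UMIs, with medians of 17.4% in cluster 18 and 13.3% in cluster 9. They differed in ribosomal protein messages, with medians of 1.51% and 9.15%.

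The precursor genes differed between these sets as well. Summed over cells, Xist, the long noncoding RNA of the inactive X chromosome, stood at 5534 CPM in cluster 18, 1733 in cluster 9 cells over 2400 UMIs and 63.3 in the 105 shallow cluster 9 cells of low unspliced share. Gria2, an AMPA glutamate receptor subunit, stood at 2910, 1127 and 337 CPM in the same order, and Cspg4 at 1632, 695 and 267. Olig1 ran the other way, at 1081, 2812 and 3762 CPM. Pdgfra stood at 2088, 1619 and 991 CPM. The 9 shallow cluster 9 cells with at least 50% unspliced molecules came mostly from replicate 1 libraries, and their values went both ways. Xist at 3618 CPM, Gria2 at 2240, Cspg4 at 1608 and Pdgfra at 3503 were nearer to cluster 18 than to the 105 shallow cells. Olig1 at 3216 CPM was nearer to those 105 cells. So was Vcan at 747 CPM, against 1718 in cluster 18 and 330 in the 105 cells. For Xist and Tsix, which overlap on opposite strands, the files and labels do not say whether counting used strand.

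Gene by gene, cluster 18 was compared with cluster 9 of the same library as the log2 ratio of CPM + 10. A gene was called higher or lower where its mean ratio over the 9 libraries was at least 2-fold and every library had the same sign. Of 4976 genes with at least 50 CPM, 97 were called higher (1.95%) and 1132 lower (22.7%). Genes with few UMIs read 0 in the shallower libraries, which pulls the mean ratio down: its median over all counted genes was -0.85, against -0.29 for the ratio of the summed counts. Group medians below are of the summed counts and are to be read against -0.29. The counts moved with its settings, from 97 higher to 441 by the ratio of summed counts and to 24 of 224 genes with at least 600 CPM, where 120 were lower.

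Among the 13 precursor genes, the surface proteoglycan Cspg4 stood above cluster 9 and the 3 transcription factors below it. Cspg4 was called higher, Lhfpl3, Sox10, Olig1, C1ql1 and Olig2 lower, and 7 were not called, with a median summed ratio of 0.03. Cspg4 (chromosome 9, 56865033 to 56899870 in mm10) averaged 1638 ± 340 CPM in cluster 18 and 721 in cluster 9 (SD, n = 9), a mean log2 ratio of 1.17 ± 0.43. By library it stood at 1701, 1617 and 847 CPM in PBS nonstim 1 to 3, at 1982, 1843 and 1930 in PBS stim 1 to 3, at 1678 in Cisplatin nonstim 1, and at 1708 and 1436 in Cisplatin stim 1 and 3. PBS nonstim 3 was the low value, and all 9 libraries exceeded their own cluster 9.

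Vcan, the matrix proteoglycan versican, had a mean log2 ratio of 0.97 ± 0.51, just under the 2-fold line. Tnr stood at 0.26 ± 0.40, Neu4 at -0.03 ± 0.48, Ptprz1 (a receptor phosphatase) at -0.13 ± 0.72 and Gpr17 at -0.23 ± 1.46, so none of them left the spread between libraries. Pdgfra (chromosome 5, 75152292 to 75198215) averaged 1857 ± 948 CPM against 1628, a mean ratio of 0.01 ± 0.88. For Pdgfra, Tnr, Neu4 and Gpr17 the mean ratio was within 1 SD of 0.

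Olig1 (chromosome 16, 91269772 to 91271933), a gene of 2.16 kb without introns, had a mean log2 ratio of -1.96 ± 1.26, with 1032 ± 782 CPM against 2787. Its neighbour Olig2 stood at -2.30 ± 1.77, Sox10 at -1.88 ± 1.00, the secreted C1q-like protein C1ql1 at -2.02 ± 0.69 and Lhfpl3 at -1.68 ± 0.92. In cells thinned to 1000 UMIs, Olig1 was found in 49.3% of cluster 18 and 89.7% of cluster 9, Olig2 in 27.1% and 60.6%, and Cspg4 in 74.3% and 44.1%. Of 17 counted transcription factors of the lineage, 6 were lower and 0 higher, with a median of -0.71. Beyond the 3 named above these were Nfia, the inhibitor of differentiation Id2 and Sox11, at -2.19, -2.46 and -1.43. Sox6, a factor that holds precursors back from differentiation, stood at 0.56 ± 0.45 and Zeb2 at 0.81 ± 0.46, neither called.

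**Figure D2:**
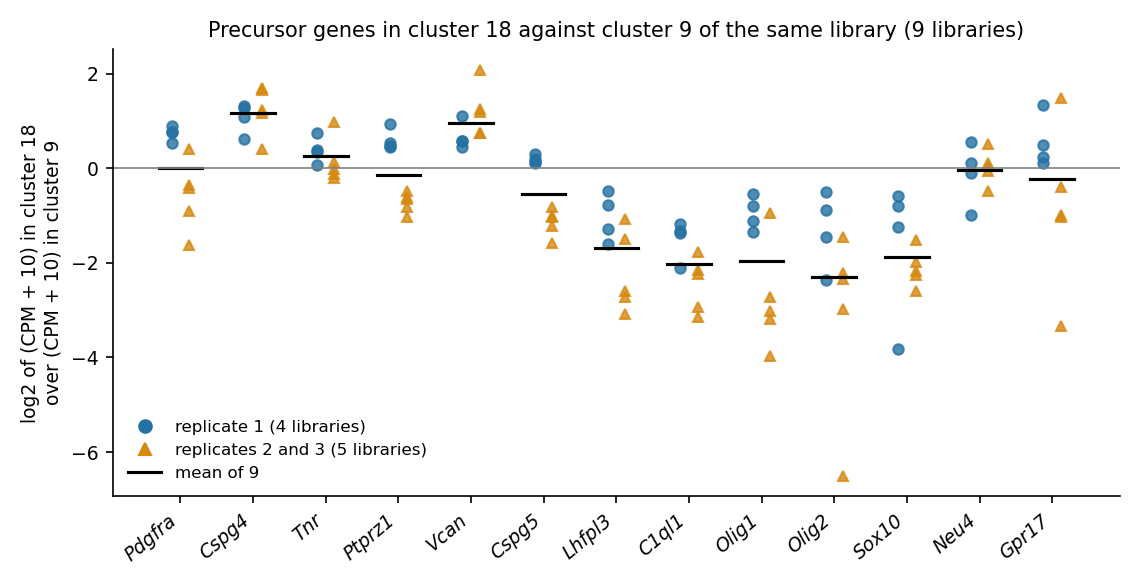
Each point is 1 of 9 libraries; the vertical axis is the log2 ratio of CPM + 10 in cluster 18 over cluster 9 of the same library, for the 13 precursor genes, with blue circles for replicate 1, orange triangles for replicates 2 and 3 and a bar at the mean. Cspg4 and Vcan lie above 0 in all libraries and Olig1, Olig2, Sox10, C1ql1 and Lhfpl3 below 0. Pdgfra, Ptprz1 and Cspg5 lie above 0 in all 4 replicate 1 libraries.

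Later stages of the lineage gave mixed values. Of 8 counted genes of committed precursors and newly formed oligodendrocytes, 0 were higher and 1, the deacetylase Sirt2, lower at -1.05 ± 0.69. The calcium channel Itpr2 stood at 1.22 ± 1.00 and the myelin-associated Bcas1 at 0.50 ± 1.31, neither called. Of 4 counted mature genes, Mbp (myelin basic protein) was higher at 1.22 ± 0.56 and the myelin enzyme Cnp lower at -1.81 ± 1.75, with Mobp at 1.28 ± 1.02 not called. Mbp UMIs were also found in 38.1% of choroid plexus cells, which make no myelin (median 3725 UMIs). They were found in 57.2% of cluster 18 and 57.8% of cluster 9 cells, which differ in depth. In cells thinned to 1000 UMIs, the shares were 44.3% in cluster 18 and 19.3% in cluster 9. Against cluster 9 cells over 10% mitochondrially encoded UMIs only, the Mbp ratio was -0.01.

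Glutamate receptor genes stood above cluster 9 more often than below it. Of 11 counted ionotropic glutamate receptor genes, 2 were higher and 0 lower, with a median of 0.54. Gria2 (chromosome 3, 80681450 to 80802835) averaged 2800 ± 448 CPM against 1142, a mean log2 ratio of 1.30 ± 0.14. By library it stood at 3090, 2556 and 2540 CPM in PBS nonstim, 2443, 2296 and 2343 in PBS stim, 3201 in Cisplatin nonstim 1, and 3415 and 3313 in Cisplatin stim 1 and 3. All 9 values lie above their own cluster 9, and those of the 3 cisplatin libraries are the highest. Of 13 counted voltage-gated sodium, calcium and potassium channels, 0 were called, and 12 had a summed ratio above 0, with a median of 0.83. Of 20 counted genes of Notch and precursor signalling, a list that also holds Gria2, 2 were higher and 1, Id2, lower, with a median of 0.38.

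Long noncoding RNA genes took 17.1% of cluster 18 UMIs and 8.97% of cluster 9 UMIs. Of 90 counted, 8 were higher and 7 lower, with a median of 0.85. Xist (chromosome X, 103460366 to 103483254) averaged 6269 ± 1579 CPM against 1737 ± 295, a mean log2 ratio of 1.82 ± 0.51. Meg3 was higher at 1.44 ± 0.54 and is on the list of neuron markers. The 8 neuron markers took 0.134% of cluster 18 UMIs against 0.0608%, with 0.0923 to 0.21% by library against 0.0424 to 0.0835%. Both of the neuron genes with enough counts had a ratio above 0 (median of summed counts 0.71), and Meg3 alone was called. The part of neuronal RNA in this difference was not tested. The protein-coding genes among the 12 highest ratios were Fam193b (2.10 ± 1.36), Safb2 (1.95 ± 0.93), Ccdc88c (1.88 ± 0.83) and Zfp692 (1.81 ± 0.86), besides mitochondrially encoded ones.

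Mitochondrially encoded messages were higher in 12 of 13 genes, with a median of 1.81, and took 16.9% of summed UMIs against 4.78%. The largest by level, mt-Atp6, a subunit of ATP synthase, averaged 34966 ± 7244 CPM against 10358. Their nuclear-encoded partners went the other way: of 75 counted nuclear genes of the respiratory chain, 62 were lower and 0 higher, with a median of -2.08 and 0.602% of UMIs against 2.55%. Sdhb, the iron-sulfur subunit of complex II (chromosome 4, 140961203 to 140979193), had 0 UMIs in cluster 18 and 733 in cluster 9 of the same 9 libraries. Cox7b stood at -4.04 ± 1.27 and Uqcr10 at -3.98 ± 1.45.

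Of 80 counted cytosolic ribosomal protein genes, 76 were lower and 0 higher, with a median of -1.78, and their share of UMIs was 1.72% against 5.92%. Other genes among the lowest ratios were the splicing protein Snrpg (-4.39 ± 1.01), the RNA polymerase subunit Polr2f (-4.23 ± 0.58) and Hint1 (-4.13 ± 1.83). The G protein subunit Gng3 (-4.09 ± 1.53), Nme2 (-4.04 ± 1.06) and Basp1 (-4.03 ± 1.69) were among them too. The longest transcripts of these genes ran from 0.636 kb (Hint1) to 1.96 kb (Polr2f). Ratios of genes at or near 0 in cluster 18 depend on the added 10 CPM and are no measured fold. Ribosomal genes and Nme2 have near-identical copies, between which the counting could split reads.

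Stress and cell cycle lists were not raised. Of 13 counted immediate early genes, 5 were lower and 0 higher, with Fos at -2.08 ± 1.13. Of 10 counted heat shock genes, 4 were lower and 0 higher, with Hspa8 at -1.90 ± 0.98. Of 5 counted cell cycle genes, 3 were lower and 0 higher. Fos has a longest transcript of 2.11 kb and Hspa8 one of 3.16 kb.

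Across genes, the ratio of cluster 18 to cluster 9 followed length. Of the counted nuclear genes, 4932 had a length in the GENCODE vM21 annotation. Genes were cut into 5 bins of equal size. From the shortest to the longest bin by longest annotated transcript, the median ratio of summed counts was -1.58, -0.77, -0.20, 0.16 and 0.53, at median lengths of 1.3, 2.58, 3.86, 5.17 and 8.18 kb. By the span of the whole gene with introns it was -1.46, -0.69, -0.28, 0.13 and 0.41, from a median of 4.5 kb to one of 170 kb. Across genes the ratio correlated with the log10 of transcript length at r = 0.631 and of gene span at r = 0.525, both given with no test since genes of the same cells are not independent. In the shortest bin by transcript 574 of 987 genes were called lower and 3 higher, and in the longest bin 20 of 987 lower and 37 higher.

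**Figure D3:**
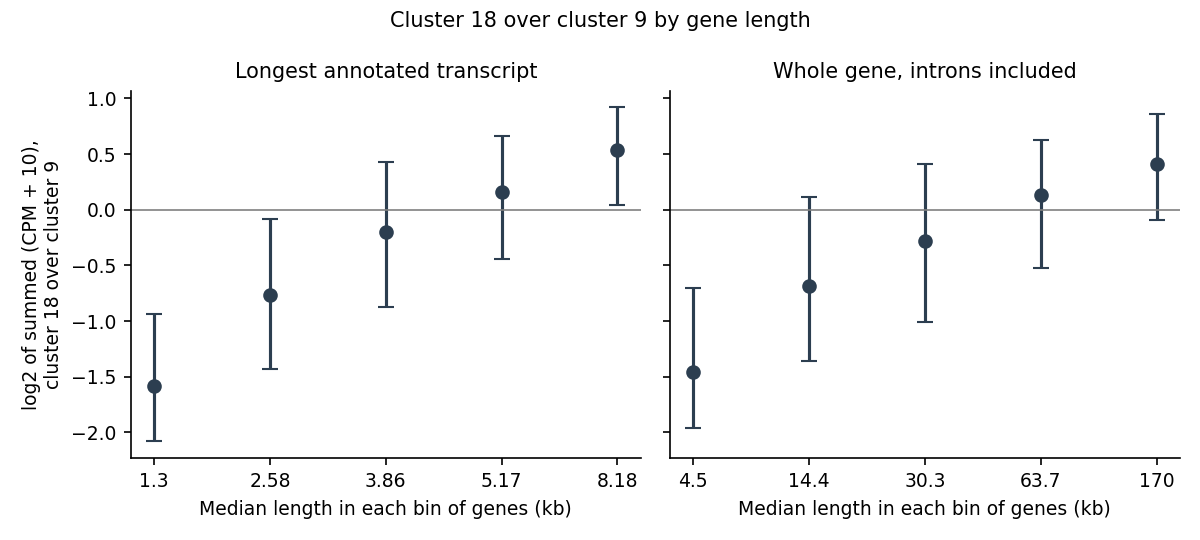
Genes were divided into 5 bins by their longest annotated transcript (left) or whole span (right); the horizontal axis gives the median length of each bin in kb and the vertical axis the log2 ratio of summed CPM + 10, cluster 18 over cluster 9, with points at medians and bars from the first to the third quartile. The median climbs from -1.58 to 0.53 with transcript length and from -1.46 to 0.41 with gene span.

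The share of precursors that fell in cluster 18 varied widely between libraries. It was 26.5, 8.28 and 16.5% in PBS nonstim 1 to 3, and 25, 26.7 and 20.7% in PBS stim 1 to 3. It was 31.0, 6.52 and 6.25% in Cisplatin nonstim 1 to 3, and 16.3, 0 and 12.5% in Cisplatin stim 1 to 3. Cisplatin stim 2 had 0 of 23 precursors in the cluster, which allows a share of up to 13.04% by the limit of 3 counts and 14.8% by the exact 95% binomial interval. The highest value of all and some of the lowest stood side by side within Cisplatin nonstim, so the groups overlapped. In cells, cluster 18 had 22, 14, 15, 12, 23 and 17 cells in the PBS libraries, and 45, 3, 2, 8, 0 and 5 in the cisplatin libraries.

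The mean share was 12.1% ± 10.9 in the cisplatin libraries and 20.6% ± 7.22 in the PBS libraries (SD, n = 6 each), a difference of -8.52 percentage points. An exact two-sided permutation test within replicate 1 and within replicates 2 and 3 gave p = 0.0714, or 0.107 with Benjamini-Hochberg adjustment over the 3 comparisons of shares. Within replicates 2 and 3 the difference was -11.7 points (exact permutation p = 0.0571, the smallest possible being 0.0286), and within replicate 1 it was -2.07 (exact permutation p = 1). The result depended on Cisplatin nonstim 1: without it the difference was -12.3 points, with an exact permutation adjusted p of 0.0286. With cells over 10% mitochondrially encoded UMIs left out, the shares were 1.85% and 4.05%, a difference of -2.20 points (exact permutation p = 0.205, adjusted 0.614). That limit removed 88.0% of cluster 18 cells and 15.5% of cluster 9 cells. It therefore took out most of the cluster and cannot tell whether the difference holds. Stimulated and unstimulated libraries differed by 1.04 points (exact permutation p = 0.829), by 5.61 within replicates 2 and 3 (exact permutation p = 0.429) and by -8.11 within replicate 1 (exact permutation p = 0.333). Within replicate 1, 2 libraries stood against 2, with 6 arrangements. There the exact permutation p could not fall below 0.333, so neither test within replicate 1 could call a difference.

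Replicate 1 libraries had more of their precursors in cluster 18 than the others, 24.7% ± 6.15 (n = 4) against 12.2% ± 8.74 (n = 8). The difference of 12.5 points had an exact permutation p of 0.0424 and an adjusted p of 0.107. As a share of all cells it was 1.19 points, with an exact permutation adjusted p of 0.0182. With cells over 10% mitochondrially encoded UMIs left out it was 0.845 points, 3.51% against 2.67% (exact permutation p = 0.648, adjusted 0.795). That limit removed 88.0% of cluster 18 cells, so it cannot tell whether the replicate 1 difference holds. Replicate 1 differs from the rest in batch name and in animals per library, and these cannot be told apart.

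**Figure D4:**
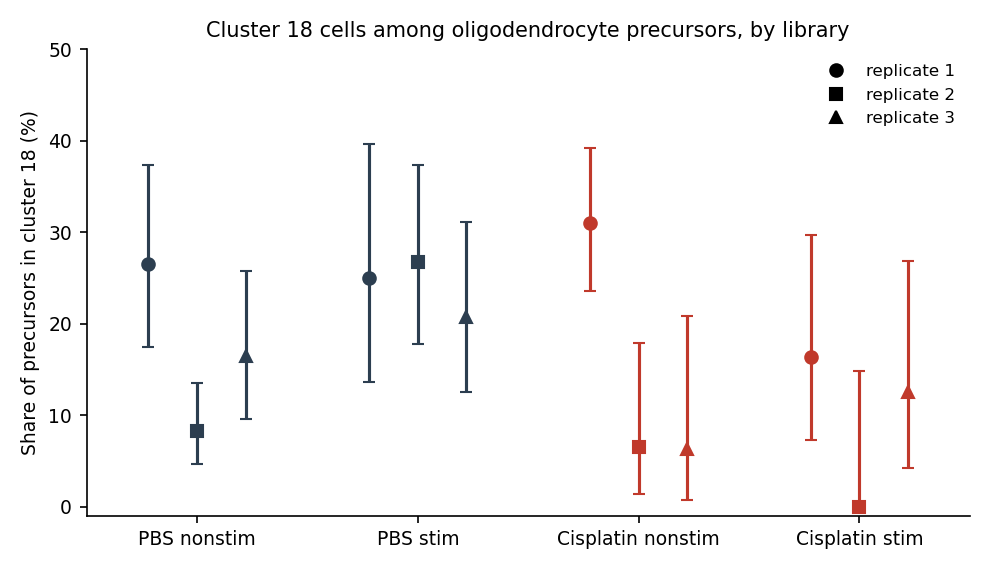
Points give the share of precursors in cluster 18 in each of the 12 libraries, in percent, by group and replicate, with exact 95% binomial intervals that cover counting error only. Replicate 1 lies between 16.3 and 31.0%, and 3 of the 4 cisplatin libraries of replicates 2 and 3 lie at or under 6.52%.

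Within cluster 18, counts summed per library were tested with edgeR over 513 genes in the 9 libraries with at least 5 cells, 6 from PBS and 3 from cisplatin mice. Cisplatin raised 1 gene (0.195%) and lowered 2 (0.39%), with 30 genes at an unadjusted p under 0.05 (5.85%), while DESeq2 called 0 genes, with 17 at an unadjusted p under 0.05. Ttr (transthyretin) rose by 1.91 ± 0.47 on the log2 scale (SE; edgeR adjusted p = 0.032), and mt-Atp8, an ATP synthase subunit, fell by 1.63 ± 0.39 (edgeR adjusted p = 0.032). Hnrnpl, a splicing regulator, was called lower at -3.96, with an SE of 1.00 (edgeR adjusted p = 0.032). It passed the filter through PBS libraries alone, where it is high, so its call is no evidence of a cisplatin change. With the replicate number as a block, mt-Atp8 alone was called, at -1.72. Leaving out PBS nonstim 1, PBS nonstim 3, PBS stim 2 or Cisplatin stim 3 gave 0 calls, and leaving out Cisplatin stim 1 gave 9.

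For mt-Atp8, the PBS libraries stood at 814, 1461 and 2172 CPM (nonstim 1 to 3) and at 830, 1934 and 3400 (stim 1 to 3), and the cisplatin libraries at 328 (nonstim 1), 231 and 552 (stim 1 and 3). The cisplatin values all lay below the PBS values. Of the 13 mitochondrially encoded genes, all tested, mt-Atp8 alone was called; mt-Atp6 was at 0.25 ± 0.26 (edgeR adjusted p = 0.915), mt-Nd1 at 0.43 and mt-Nd6 at -0.43, the ends of the range of the other 12. In cluster 9 mt-Atp8 fell by 0.97 (edgeR adjusted p = 0.00506). Of the 513 genes, 7 had all cisplatin libraries above all PBS libraries (1.36%) and 16 had them below (3.12%).

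For Hnrnpl (chromosome 7, 28808541 to 28822266), the PBS libraries held 7 to 16 UMIs each, the Cisplatin nonstim 1 library 10, and Cisplatin stim 1 and 3 none. In CPM the PBS libraries stood at 168, 470 and 295 (nonstim) and 415, 483 and 597 (stim), and Cisplatin nonstim 1 at 91.2. The fitted change rests on the 2 libraries without UMIs and is no measured fold. Only PBS libraries had enough counts to bring Hnrnpl past the filter. In cluster 9 Hnrnpl stood at 0.12 (edgeR adjusted p = 0.748), and the difference between the clusters did not pass its own test (edgeR adjusted p = 0.998).

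Ttr is made by choroid plexus, where its summed level was 175035 CPM. Ttr UMIs were in 53.6% of cluster 18 cells (median 1656 UMIs), 57.3% of cluster 9 cells (median 7216) and 54.3% of neurons (median 3132). These shares come from cells of unlike depth. In cells thinned to 1000 UMIs, Ttr was found in 36.4% of cluster 18 and 20.6% of cluster 9. The PBS libraries stood at 95.8, 522 and 258 CPM (nonstim) and 46.1, 514 and 1424 (stim), and the cisplatin libraries at 684, 231 and 1104, so the groups overlapped. In cluster 9 it rose by 2.19 (edgeR adjusted p = 0.0046). The part of free RNA in this change was not tested.

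**Figure D5:**
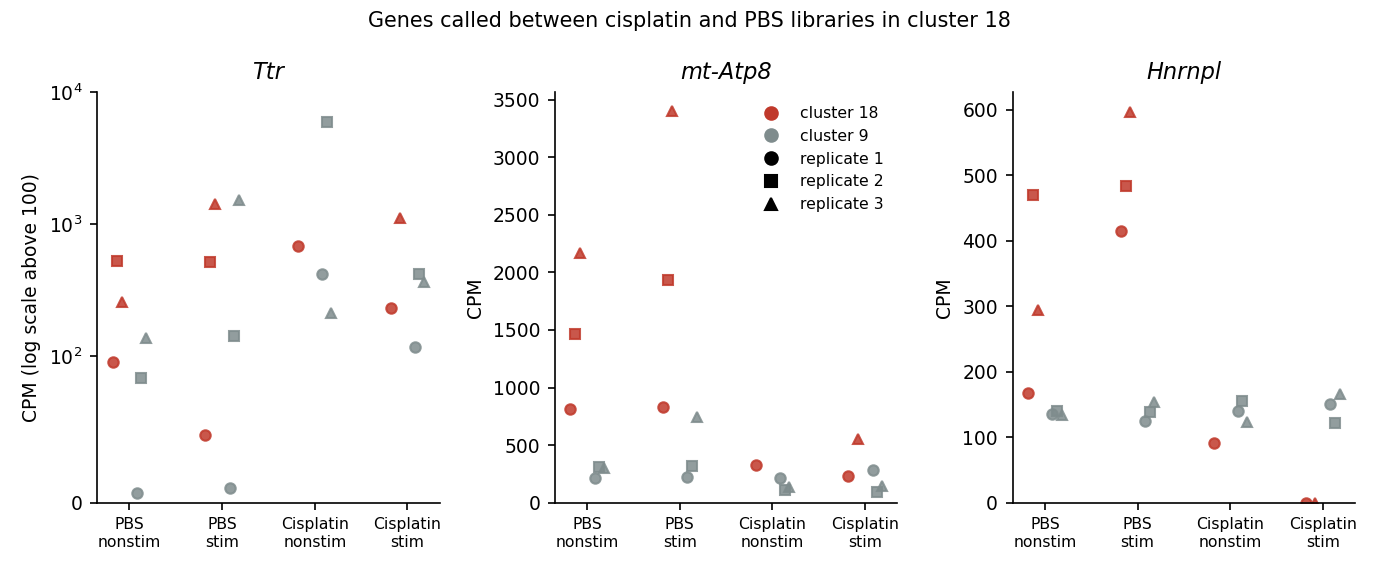
Points give the CPM of Ttr, mt-Atp8 and Hnrnpl in each library, by group, with red for cluster 18 (9 libraries), grey for cluster 9 (12 libraries) and the marker shape for the replicate; the Ttr axis is logarithmic above 100. In cluster 18, mt-Atp8 lies at 231 to 552 CPM in cisplatin libraries and 814 to 3400 in PBS libraries, while Ttr overlaps between them.

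No precursor gene was called with cisplatin: of 13, 12 were tested, Sox10 being the exception, and 0 called, with a median of 0.09 against -0.04 over all 513 genes. Pdgfra stood at 0.31, Tnr at 0.02, Gpr17 at -0.27 and Neu4 at -0.70 (edgeR adjusted p = 0.73, the smallest of the list). Neu4 ranged from 277 to 483 CPM in the 3 cisplatin libraries and from 507 to 743 in the 6 PBS libraries, which do not overlap, as for 3.12% of all genes tested in that direction. Of 26 genes of Notch and precursor signalling 7 were tested and 0 called, with a median of 0.23. Among them Gria2 stood at 0.31 (edgeR adjusted p = 0.913). It ranged from 3201 to 3415 CPM in the cisplatin libraries and from 2296 to 3090 in the PBS libraries. These ranges do not overlap, as for 1.36% of all genes tested in that direction. In cluster 9 Gria2 rose by 0.37 (edgeR adjusted p = 0.023). Of 13 heat shock genes 5 were tested and 0 called, with Hsp90aa1 at -0.92 (edgeR adjusted p = 0.543), and of 17 immediate early genes 4 were tested and 0 called. Mt1, a metallothionein and the 1 of 15 glucocorticoid response genes tested, stood at 0.91 (edgeR adjusted p = 0.831). No gene of the p53, cell cycle, cholesterol synthesis or interferon lists had enough UMIs to be tested. A joint fit of both clusters covered 3186 genes, against 513 that passed the filter in cluster 18 alone. By edgeR, 0 genes differed between clusters in their response to cisplatin (0%), with 80 at an unadjusted p under 0.05 (2.51%). Most of the 3186 did not pass the filter in cluster 18 alone. The 0 therefore does not show that the clusters responded alike. In cluster 9, with far more UMIs, cisplatin raised 106 of 7639 genes (1.39%) and lowered 54 (0.707%).

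Stimulation gave no calls in cluster 18. Averaged over drug, 0 of 513 genes were called by edgeR (0%; 25, or 4.87%, at an unadjusted p under 0.05) and 0 by DESeq2 (8 at that level). The smallest unadjusted p-values were those of the splicing factor Srsf5 at 1.23 and the ribosomal Fau at -1.64 (edgeR adjusted p = 0.932 for both). Between PBS stim and PBS nonstim, 0 were called by edgeR (0%; 27, or 5.26%, at an unadjusted p under 0.05) and 0 by DESeq2 (5). The interaction of drug and stimulation also gave 0 by edgeR (0%; 25, or 4.87%, at that level) and 0 by DESeq2 (4), with Ttr at -2.88 and Mt1 at 3.79 closest (edgeR adjusted p = 0.196 for both). Only 1 Cisplatin nonstim library had 5 cells, so its comparisons with PBS nonstim and Cisplatin stim were run only with libraries of at least 1 cell. Those gave 1 gene higher and 2 lower of 378 for cisplatin without stimulation (0.265% and 0.529%) and 0 for stimulation under cisplatin (0%; 7 at an unadjusted p under 0.05).

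Most calls within cluster 18 lay between replicate 1 and the other replicates. This comparison was chosen after the values were seen, as were the genes named in it. Of 513 genes 132 were higher in replicate 1 (25.7%) and 78 lower (15.2%) by edgeR. The filter let a gene enter on its counts in 1 library. Some genes were therefore tested only because they were high in replicate 1, or only because they were high in the others. In cluster 9 of the series 97 of 7639 were higher (1.27%) and 54 lower (0.707%). The cluster 9 fit used 12 libraries and many genes of lower CPM, so the shares of the clusters are over unlike gene sets. The difference between the clusters in this contrast was called for 246 of 3186 genes (7.72%). Most of these 3186 genes did not pass the filter in cluster 18 alone, where 513 did. The 210 calls in cluster 18 numbered 87 without PBS nonstim 1 and 118 without PBS stim 1.

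Precursor genes were among those that rose. Of 12 tested precursor genes 8 were higher in replicate 1 and 0 lower, where 25.7% of all 513 genes were higher. Their median was 1.52, against 0.14 for the same genes in cluster 9 and -0.12 over all 513 genes. The count and the median include Olig2 and C1ql1, which passed the filter through replicate 1 libraries alone. Olig2 stood at 168 to 692 CPM in replicate 1 and 0 to 272 in the others, C1ql1 at 185 to 553 and 104 to 302. Pdgfra in cluster 18 stood at 2683, 2581, 2627 and 3231 CPM in the 4 replicate 1 libraries. In the others it stood at 626 and 1289 (PBS nonstim), 1088 and 827 (PBS stim) and 1767 (Cisplatin stim 3). The sets did not overlap, as for 172 of the 513 genes (33.5%), and the change was 1.54 ± 0.29 (edgeR adjusted p = 2.1e-05). In cluster 9 Pdgfra ranged from 1383 to 2235 CPM in replicate 1 and from 1321 to 1938 in the other libraries, which overlap.

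Ptprz1 stood at 5576 to 7469 CPM in replicate 1 and 1767 to 2713 in the others, and Cspg5 at 3779 to 5261 and 965 to 2430. Olig1 rose by 2.45 ± 0.36 (edgeR adjusted p = 8.1e-08), with 1295 to 2120 CPM in replicate 1 and 157 to 1436 in the others, Cisplatin stim 3 being the high one. Tnr, at 1246 to 2108 and 997 to 2099 CPM, and Neu4, at 277 to 743 and 331 to 678, overlapped. The precursor list took 2.23 to 2.42% of UMIs in replicate 1 and 1.05 to 1.502% in the others, and 1.76 to 2.21% in cluster 9.

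The smallest p-value among all 513 genes was that of Apoe. This gene, which encodes a secreted lipid carrier (chromosome 7, 19696109 to 19699188), stood at 5346 to 7725 CPM in replicate 1 and 276 to 1325 in the others, a change of 3.51 ± 0.30 (edgeR adjusted p = 1.7e-14). In cluster 9 it stood at 3951 to 6206 and 3794 to 4924 CPM, which overlap, with a change of 0.27. The receptor Gpr37l1 rose by 4.28, the membrane protein Itm2b by 4.43 and the tetraspanin Cd9 by 4.25. The endoplasmic reticulum folding enzymes Pdia6 and Ppib rose by 4.19 and 4.09, the chaperones Hsp90b1 and Calr by 2.92 and 3.06, and the lysosomal protein Lamp1 by 4.16. Itm2b stood at 958 to 1475 CPM in replicate 1 and 0 to 121 in the others. In cluster 9 it held at least 910 CPM in each of these libraries. Of the genes named here, all but Apoe passed the filter through replicate 1 libraries alone. Itm2b, Cd9, Pdia6, Ppib and Lamp1 reached down to 0 CPM in the others, where 1 UMI equals up to 110 CPM. Their fitted rises are no measured fold.

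The genes that fell included Ankrd11, Syne1, Macf1 and Chd7. Ankrd11, a chromatin regulator, stood at 431 to 692 CPM in replicate 1 and 1884 to 3424 in the others, a change of -2.01 ± 0.34 (edgeR adjusted p = 1.7e-06). The nuclear envelope spectrin Syne1 fell by 2.84, the crosslinker Macf1 by 1.93 and the remodeller Chd7 by 2.07. Syne1, Macf1 and Chd7 passed the filter through libraries outside replicate 1 alone. Xist ranged from 4104 to 5630 CPM in replicate 1 and from 5927 to 8295 in the others, with no overlap. Of 83 cytosolic ribosomal protein genes 18 were tested and 10 were higher in replicate 1, against 25.7% of all 513 genes. The filter could admit such genes through replicate 1 alone, so this count is no result about the group. Of 13 mitochondrially encoded genes 3 were lower, not far from the 15.2% lower among all 513. In the 9 libraries tested, median UMIs per cell were 1668 to 2726.5 in replicate 1 and 1212.5 to 1449 in the others, and median ribosomal shares 1.57 to 2.41% and 0.772 to 0.934%. The libraries with 2 and 3 cells, both outside replicate 1, lie above the other libraries' range in ribosomal share: Cisplatin nonstim 2 (3 cells) had 991 UMIs and 2.74%, and Cisplatin nonstim 3 (2 cells) 2760.5 UMIs and 1.61%. The part of depth in these differences was not tested.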

How the data were processed

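Cells, clusters and cell types are those the authors deposited. The deposited counts are raw UMI counts per cell and gene. Signal columns deposited by the authors give spliced and unspliced molecules per cell, the percent columns deposited by the authors include the ribosomal share, and the doublet score is also as deposited. Per the submitters' processing notes, which state no roles, the tools were Cell Ranger 5.0.0 and Scanpy and the build mm10; no source states a strand setting. The authors' mitochondrial percent did not match the 13 mitochondrially encoded genes and was recomputed from the counts. The table holds no cell under 500 genes.

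Members and gene lists were chosen with earlier results of these data known. Counts were summed per library and cluster, for libraries with at least 5 cells. The comparison of clusters used CPM + 10 and no test. Conditions were tested with edgeR 4.0.16 (quasi-likelihood, TMM, filterByExpr, group and replicate 1 terms, 4 residual degrees of freedom) in R 4.3.3, called at an adjusted p under 0.05, and with DESeq2 1.42.0 as an alternative. Scripts were tested on simulated data. Shares were tested by exact permutation of libraries. Deviations of PBS nonstim and PBS stim libraries with the same replicate number correlated at 0.775, 0.376 and 0.424, which met the rule of over 0.1 in every pair. The replicate number was used as a block in an alternative setting only. The main tests took replicate 1 apart from replicates 2 and 3. Replicates 2 and 3 with unlike numbers correlated as highly, at 0.435 and 0.434, so these values do not tell number 2 from number 3. Intervals and limits for a count of 0 are exact 95% binomial ones and 3 counts of the total. Genes were named by a rule: the precursor and lineage markers, the 12 highest and 12 lowest cluster ratios, called genes or else the 4 smallest p-values, 3 per condition list, and 6 genes against other cell types. Other lineage, channel, stress and replicate genes were chosen after their values were seen. Some genes that the rule names are not reported here.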

Additional observations from a re-analysis of the deposited data

Results flagged for a closer look

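The contrast of replicate 1 against replicates 2 and 3 differed between clusters 18 and 9. By an edgeR test of that difference, 246 of 3186 genes passed an adjusted p of 0.05 (7.72%). Of the 246, 173 were higher and 73 lower in replicate 1 of cluster 18 relative to cluster 9. Most of the 3186 genes did not pass the filter in cluster 18 alone, where 513 did. Apoe had the smallest p-value, at 3.17 on the log2 scale (edgeR adjusted p = 4.5e-24). Replicate 1 differs from the others in batch name and in animals per library, and the source of the difference was not tested.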

How the results depend on the processing

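Only 4 residual degrees of freedom, 513 testable genes and 3 cisplatin libraries stood behind the condition tests, so that small changes and most listed stress genes were not detectable at this depth. The 3 cisplatin calls became 0 with a filterByExpr minimum count of 3, without a filter, with DESeq2 and without the replicate 1 term, 1 with the replicate block and 6 with libraries of at least 1 cell. Leaving out 1 library gave 0 to 9 calls: 0 without PBS nonstim 1, PBS nonstim 3, PBS stim 2 or Cisplatin stim 3, and 9 without Cisplatin stim 1. The stimulation count reached 2 and the interaction count 6 without Cisplatin stim 1, with a range from 0. No fit was possible for cisplatin with libraries of at least 10 cells, with cells over 10% mitochondrially encoded UMIs left out, with replicates 2 and 3 only or without Cisplatin nonstim 1. The replicate block gave an exact permutation p of 0.0741 for the cisplatin share and changed no other call. Calls between replicate 1 and the others numbered 210, against 334 with a minimum count of 3, 129 with DESeq2, 122 with libraries of at least 1 cell, 96 in PBS libraries only, and 87 (without PBS nonstim 1) to 246 with 1 library left out, 118 without PBS stim 1. The cisplatin difference in share ranged from -12.3 to -6.1 points with 1 library left out, and that of replicate 1 from 10.4 to 15.3, with an adjusted p of 0.0364 without PBS stim 2 (14.6 points). The replicate 1 difference was 1.19 points of all cells and 15.2 points without cells under 1000 UMIs. Both had an exact permutation adjusted p of 0.0182. Without cells over 10% mitochondrially encoded UMIs the replicate 1 difference was 0.845 points (exact permutation adjusted p 0.795) and the cisplatin difference -2.2. That limit removed 88.0% of cluster 18 cells and 15.5% of cluster 9 cells, so it decides neither difference. The stimulation difference turned to -0.0791 points of all cells, -0.198 without cells under 1000 UMIs, -8.11 in replicate 1 only (5.61 in replicates 2 and 3 only), and ranged from -0.935 to 4.41 with 1 library left out. Genes higher in cluster 18 numbered 3 at 4-fold, 178 in libraries with at least 10 cells, 415 among cells of at most 2400 UMIs, 389 against cluster 9 cells over 10% mitochondrially encoded UMIs, 24 at 600 CPM, 441 by summed counts and 509 in replicates 2 and 3. Genes lower numbered 664, 120 and 1721 among cells of at most 2400 UMIs, at 600 CPM and in replicates 2 and 3. The Mbp log2 ratio was -0.014 against cluster 9 cells over 10% mitochondrially encoded UMIs. Thinned to 500 UMIs, cells held 322 genes in cluster 18 and 401 in cluster 9. The settings added after seeing the data were the 2400 UMI limit, the 10% mitochondrial limit on cluster 9, 600 CPM, summed counts, replicates 2 and 3 only, replicate 1 only and the replicate 1 contrast. The causes of these changes were not tested.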
